A study of Drosophila melanogaster with 12 samples.

Results

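The insulin-like peptides of *Drosophila melanogaster* are secreted ligands of the insulin family, and the table of array values holds 8 of their genes, *Ilp1* to *Ilp8*, together with *ImpL2*, the gene of a secreted immunoglobulin-domain protein that binds insulin-like peptides and restrains their signaling. These 9 genes were found in the table by their symbols, out of 13554 genes, and each is represented by 1 row. Flies were adult males aged 5 days, and RNA came from whole bodies of 10 males per array. The 4 groups of 3 arrays each were *dSTINGΔ* males kept without food on moist paper for 24 hr (*dSTINGΔ* starved), *w1118* males treated likewise (control starved), *dSTINGΔ* males on regular food (*dSTINGΔ* fed) and *w1118* males on regular food (control fed). The mutant, named dSTINGknock in the sample labels, carries a homozygous deletion that removes the start codon of *dSTING* (CG1667), the fly homolog of the innate immune adaptor STING. One mutant stock was set against one control stock, so that the deletion and any other difference between the stocks cannot be told apart, and in whole bodies fewer cells of a type and less RNA per cell cannot be told apart either.

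Insulin-like peptides act mainly through the single insulin receptor InR, whose signal passes through the substrate Chico, phosphoinositide 3-kinase and Akt to hold the transcription factor FOXO out of the nucleus. *Ilp2*, *Ilp3* and *Ilp5* are made by a small group of neurosecretory cells in the adult brain, the insulin-producing cells, and *Ilp6* is made largely by the fat body, the fly counterpart of liver and adipose tissue. *Ilp7* is expressed in a few neurons of the ventral nerve cord, *Ilp8* encodes a relaxin-like peptide that delays larval development through the receptor Lgr3, and *Ilp1* and *Ilp4* are known chiefly from developmental stages. In larvae, transcription of *Ilp3* and *Ilp5*, but not of *Ilp2*, is known to depend on feeding.

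The main findings for the 9 genes were these. *Ilp2* was higher and *Ilp3* lower in *dSTINGΔ* than in control males, in both feeding states. *Ilp5* was lower in starved than in fed males of both genotypes. *Ilp2* was lower in starved than in fed control males, and it was not called between starved and fed *dSTINGΔ* males. The difference between these starvation responses was itself not called, and the call in control males was lost under some alternatives. *Ilp1*, *Ilp4*, *Ilp6*, *Ilp7* and *Ilp8* were not called in any of the comparisons made, and *ImpL2* was called lower in *dSTINGΔ* males only when the genotype difference was averaged over feeding. Values are log2 array signals, in which 1 unit is a doubling. Differences between groups were estimated with limma in 1 model fitted to the 12 arrays, and p-values were adjusted over all 13554 genes (Benjamini-Hochberg), and a gene was called at an adjusted p under 0.05.

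**Figure D1:**
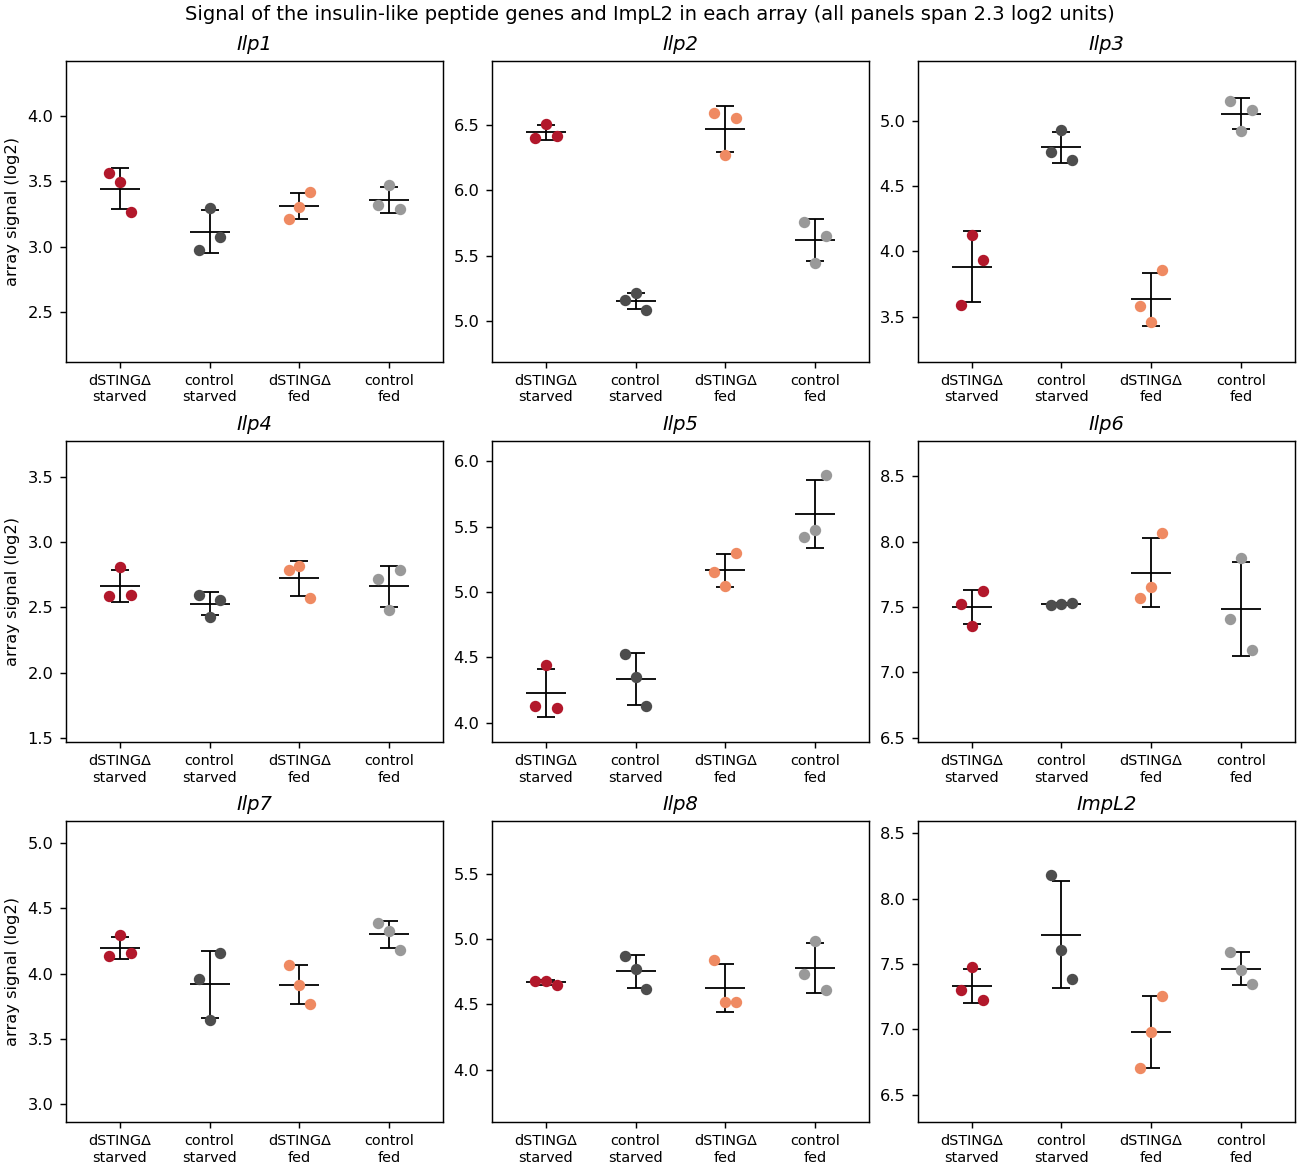
Log2 array signal of the 9 genes (vertical axis) in *dSTINGΔ* starved, control starved, *dSTINGΔ* fed and control fed males (horizontal axis), with 1 point per array and black lines for the mean and the SD of the 3 arrays. *Ilp2* is high and *Ilp3* low in both *dSTINGΔ* groups, and *Ilp5* is low in both starved groups.

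As a check of the labels, the targeted gene was lower in *dSTINGΔ* than in control males of the same feeding state, with log2 fold changes of -2.88 in starved (adjusted p = 7.09e-07) and -3.60 in fed males (adjusted p = 7.54e-08). Its signal was 2.36 to 2.57 in *dSTINGΔ* starved, 5.24 to 5.49 in control starved, 1.98 to 2.38 in *dSTINGΔ* fed and 5.44 to 6.28 in control fed arrays, although the part of the gene covered by its probes was not known. Arrays of 1 group correlated at 0.983 to 0.996. Arrays are numbered here as in the table, with 10 to 12 for *dSTINGΔ* starved, 7 to 9 for control starved, 4 to 6 for *dSTINGΔ* fed and 1 to 3 for control fed males. Probes of different genes differ in brightness, so the levels of the 9 genes were not ranked against each other, and a comparison with other genes serves only as a rough guide to background. For that guide, 15 eggshell genes of the ovary, a tissue that males lack, had means over the 12 arrays of 1.83 to 5.17 and a median of 2.98. Over the 12 arrays the means of *Ilp2*, *Ilp6* and *ImpL2* lay above this range and those of the other 6 genes lay within it. In control starved males alone, the *Ilp2* mean of 5.15 was also within it. The upper end of this range was set by *Cp15* alone. The means of *Ilp3*, *Ilp5* and *Ilp8*, and that of *Ilp2* in control starved males, lay above the mean of every other eggshell gene. A signal in that range can hold a large share of background, which makes a log2 difference smaller than that of the RNA. Even so, 1 of the 15 eggshell genes, *Cp7Fb*, was called higher in *dSTINGΔ* starved than in control starved males (0.64, limma, adjusted p = 0.0328). Between the fed genotypes *Cp7Fb* differed by 0.62 and was not called (adjusted p = 0.0512). Its *dSTINGΔ* arrays lay above its control arrays in both states. Genes of other tissues were called between groups too. Of 12 genes of the male reproductive tract, 1 was higher and 3 lower in *dSTINGΔ* starved males than in their controls, 1 was higher and 0 lower in the fed state, 1 was higher and 6 lower on starvation in *dSTINGΔ* males, and 0 were higher and 4 lower on starvation in control males, with group means of the list of 8.68 to 9.29. Of 5 muscle genes, 0 were higher in any of these comparisons, 1 was lower between the genotypes in each feeding state, and on starvation 2 were lower in *dSTINGΔ* and 1 in control males (group means 9.01 to 9.50). Over all genes, 9.01% were higher and 10.9% lower between the starved genotypes, and 6.20% and 6.26% between the fed ones. On starvation the shares were 7.30% and 9.52% in *dSTINGΔ*, and 5.68% and 5.55% in control males. A single called gene in either list is near these shares. The part of these tissues in the values of the 9 genes was not tested.

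*dSTINGΔ* and control males differed in opposite directions in a pair of neighboring brain peptide genes. *Ilp2*, one of the peptides of the insulin-producing cells, had signals of 6.40, 6.51 and 6.42 in *dSTINGΔ* starved, 5.16, 5.21 and 5.09 in control starved, 6.59, 6.27 and 6.55 in *dSTINGΔ* fed and 5.76, 5.44 and 5.65 in control fed males. All 6 mutant arrays lay above all 6 control arrays. *Ilp2* was higher in *dSTINGΔ* starved than in control starved males by a log2 difference of 1.29 (standard error 0.11, adjusted p = 6.8e-06), with a control starved mean inside the range of the eggshell genes, and higher in *dSTINGΔ* fed than in control fed males by 0.85 (standard error 0.11, adjusted p = 0.000247). The fed call was lost with arrays centred on neuron markers (0.43, adjusted p = 0.0822), and the starved call was kept. From high to low, the order of the *Ilp2* means was *dSTINGΔ* fed, *dSTINGΔ* starved, control fed and control starved, and of these neighbors only the mutant groups overlapped. *Ilp3*, also a product of the insulin-producing cells, had signals of 3.59, 4.13 and 3.93 in *dSTINGΔ* starved, 4.76, 4.93 and 4.70 in control starved, 3.58, 3.46 and 3.86 in *dSTINGΔ* fed and 5.16, 4.92 and 5.09 in control fed males. Every mutant array was below every control array. *Ilp3* was lower in the mutant, with a log2 difference of -0.91 under starved (standard error 0.14, adjusted p = 0.000661) and -1.42 under fed conditions (standard error 0.14, adjusted p = 3.89e-05), at signals that lay within the range of the eggshell genes in all groups. In the order of the *Ilp3* means, control fed and control starved males were highest and overlapped, and *dSTINGΔ* starved and *dSTINGΔ* fed males were lowest and overlapped.

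Under fed conditions 1 of the 9 genes was therefore higher (*Ilp2*) and 1 lower (*Ilp3*) in *dSTINGΔ* males. Over all features 6.20% of genes were called higher and 6.26% lower in this comparison, and the median log2 fold change was -0.15 over the 9 genes and -0.01 over all genes. The same genes, 1 higher and 1 lower, were called under starved conditions, where 9.01% of all genes were higher and 10.9% lower, and the medians were -0.02 over the 9 genes and 0.00 over all genes. Read against these shares, a count of 1 in 9 is near the background and is no result about the genes as a group.

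The remaining members were not called between genotypes in either feeding state. *Ilp5*, the third peptide of the brain cells, was lower in every *dSTINGΔ* fed array than in every control fed array, but its log2 fold change of -0.43 (95% confidence interval -0.75 to -0.11) had an adjusted p of 0.0751, which became 0.0434 without control fed array 1. In starved males its *dSTINGΔ* and control arrays overlapped (log2 fold change -0.11, interval -0.43 to 0.21, adjusted p = 0.653). For *Ilp6* the log2 fold change was -0.02 (interval -0.38 to 0.34) under starved and 0.28 (interval -0.08 to 0.64) under fed conditions, and arrays overlapped in both. The intervals of *Ilp4* and *Ilp8* reached no further than 0.41 from 0 in either feeding state. *Ilp1* differed by 0.33 between *dSTINGΔ* starved and control starved males (interval 0.09 to 0.57, adjusted p = 0.0518), with 1 *dSTINGΔ* array (3.27) just below the highest control array (3.29), and by -0.05 in the fed state (adjusted p = 0.83). The adjusted p of *Ilp1* under starved conditions fell on either side of the threshold when single arrays were left out, at 0.0333 without control starved array 8, 0.0292 without *dSTINGΔ* starved array 12 and 0.049 without control fed array 1.

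*ImpL2*, the binding protein, had signals of 7.30, 7.48 and 7.22 in *dSTINGΔ* starved, 8.18, 7.61 and 7.39 in control starved, 6.71, 6.98 and 7.26 in *dSTINGΔ* fed and 7.59, 7.45 and 7.35 in control fed males. The *dSTINGΔ* fed arrays were all below the control fed arrays, and the starved genotypes overlapped. Its log2 fold change was -0.39 in starved males (interval -0.79 to 0.01, adjusted p = 0.161) and -0.48 in fed males (interval -0.88 to -0.08, adjusted p = 0.111), neither of which passed the threshold (the fed difference did without control starved array 7, at an adjusted p of 0.0457). With the genotype difference averaged over both feeding states, *ImpL2* was lower in *dSTINGΔ* males by a log2 difference of -0.44 (standard error 0.13, adjusted p = 0.0268). That call was lost without array 1 (adjusted p = 0.0504), array 4 (0.0673), array 5 (0.0523), array 10 (0.0566) or array 12 (0.062). In the same averaged comparison *Ilp2* was higher by 1.07 (adjusted p = 7.66e-07) and *Ilp3* lower, with a difference of -1.17 (adjusted p = 4.06e-06), making 1 of 9 genes higher and 2 lower, where 12% of all genes were higher and 12.6% lower. *Ilp5*, at -0.27 (adjusted p = 0.0753), passed in this average without array 1 (0.0452), array 9 (0.0449) or array 11 (0.0444).

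**Figure D2:**
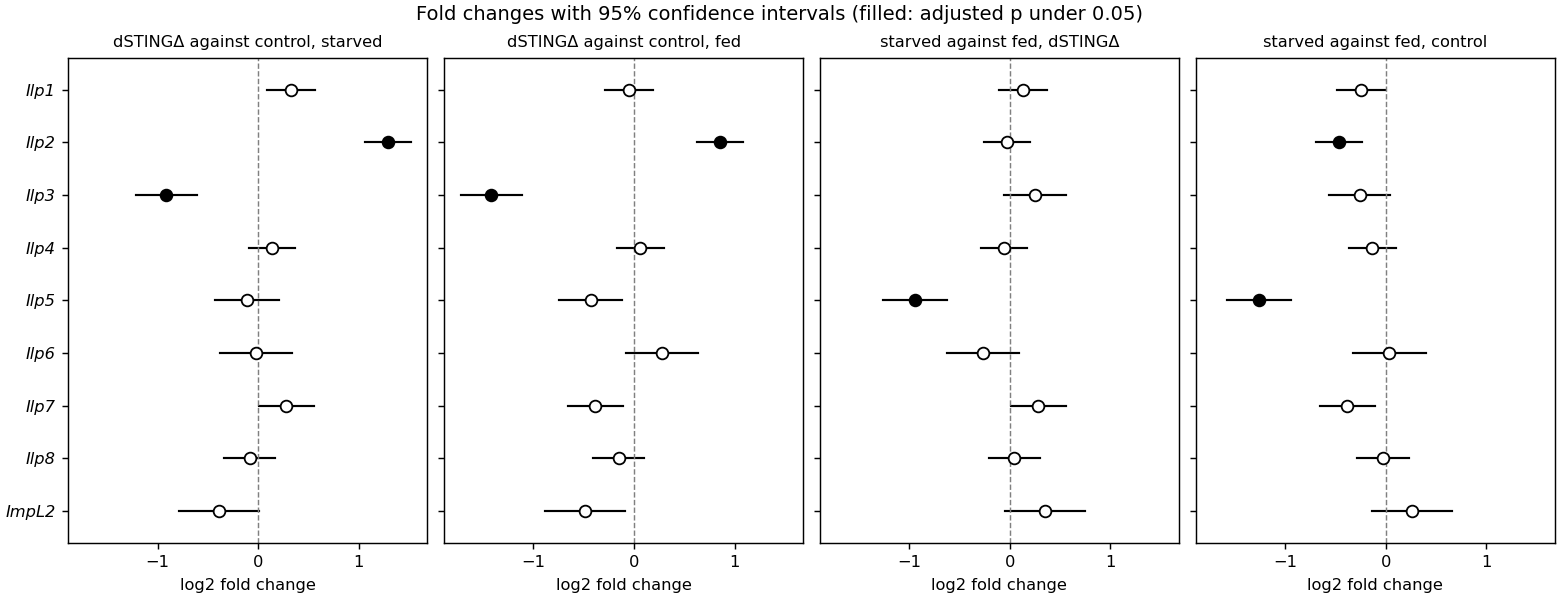
Log2 fold change (horizontal axis) of each of the 9 genes in 4 comparisons, with 95% confidence intervals from limma. Filled points mark an adjusted p under 0.05, which *Ilp2* and *Ilp3* reach between genotypes in both feeding states *Ilp5* reaches on starvation in both genotypes, and *Ilp2* reaches on starvation in control males.

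Starvation was accompanied by lower *Ilp5* in both genotypes. Its signals were 4.12, 4.44 and 4.11 in *dSTINGΔ* starved, 5.15, 5.04 and 5.30 in *dSTINGΔ* fed, 4.53, 4.35 and 4.13 in control starved and 5.42, 5.47 and 5.90 in control fed males. All 6 starved arrays lay below all 6 fed arrays, and the starved groups overlapped each other. The log2 difference of *Ilp5* was -0.94 in *dSTINGΔ* males (standard error 0.15, adjusted p = 0.000618) and -1.26 in control males (standard error 0.15, adjusted p = 0.000695), and both starved means lay within the range of the eggshell genes. Averaged over genotype, the difference was -1.10 (adjusted p = 1.38e-05).

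*Ilp2* was lower in control starved than in control fed males by a log2 difference of -0.46 (standard error 0.11) at an adjusted p of 0.018, without overlap of the arrays. The call was lost without control fed array 3 (adjusted p = 0.0631), without control starved array 7 (0.0663) and in a fit of these 6 arrays alone (0.0689). In *dSTINGΔ* males the starved and fed arrays of *Ilp2* overlapped, with a log2 fold change of -0.03 (interval -0.26 to 0.20, adjusted p = 0.892). The difference between the responses of the genotypes was 0.44 and was not called (limma, adjusted p = 0.159). The average over genotypes was -0.25 (adjusted p = 0.0297), and it failed the threshold without any one of arrays 1 (0.0523), 3 (0.0536), 4 (0.0776), 6 (0.0675), 7 (0.0586), 9 (0.061), 10 (0.0707) and 12 (0.0625).

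*Ilp3* was not called on starvation in either genotype. Its log2 fold change was 0.25 in *dSTINGΔ* males (interval -0.06 to 0.55, adjusted p = 0.265) and -0.26 in control males (interval -0.56 to 0.05, adjusted p = 0.248), and starved and fed arrays overlapped in both. *ImpL2* differed by 0.35 in *dSTINGΔ* males (interval -0.05 to 0.75) and by 0.26 in control males (interval -0.14 to 0.66), and neither passed the threshold. Averaged over genotype, the *ImpL2* difference of 0.31 (adjusted p = 0.109) passed without control starved array 9 (0.0383). *Ilp6* differed by -0.26 in *dSTINGΔ* males (interval -0.62 to 0.10) and by 0.04 in control males (interval -0.32 to 0.40), with overlapping arrays in both. In control starved males the 3 *Ilp6* values lay within 7.51 to 7.53, while in control fed males they spread over 7.17 to 7.87. For *Ilp1* the difference was 0.13 in *dSTINGΔ* and -0.25 in control males, for *Ilp4* it was -0.06 in *dSTINGΔ* and -0.13 in control males, and for *Ilp8* it was 0.04 in *dSTINGΔ* and -0.03 in control males, all short of the threshold.

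In *dSTINGΔ* males starvation thus called 0 of the 9 genes higher and 1 lower (*Ilp5*), where limma called 7.30% of all genes higher and 9.52% lower. At an unadjusted p under 0.05, 1 was higher and 1 lower. In control males it called 0 higher and 2 lower (*Ilp2* and *Ilp5*), against 5.68% and 5.55% of all genes, and 0 were higher and 4 lower at an unadjusted p under 0.05. The median over the 9 genes was 0.04 in *dSTINGΔ* and -0.25 in control males, beside medians over all genes of 0.02 and 0.00. Averaged over genotype, 0 were higher and 2 lower, against 12.1% and 12.5% of all genes, and 1 and 2 at an unadjusted p under 0.05. Shares of all genes at an unadjusted p under 0.05 were not computed, here or below, so counts at that p have no background. No other tool than limma was run.

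*Ilp7*, which is expressed in neurons, had signals of 4.13, 4.29 and 4.16 in *dSTINGΔ* starved, 4.06, 3.91 and 3.77 in *dSTINGΔ* fed, 3.96, 3.64 and 4.15 in control starved and 4.39, 4.33 and 4.18 in control fed males. Starved arrays were all above fed arrays in *dSTINGΔ* males and all below them in control males, by narrow gaps. Neither difference was called by itself, at 0.28 in *dSTINGΔ* males (interval 0.01 to 0.56, adjusted p = 0.155) and -0.38 in control males (interval -0.66 to -0.11, adjusted p = 0.0672). Between genotypes *Ilp7* differed by 0.28 in starved males (adjusted p = 0.145) and by -0.39 in fed males (adjusted p = 0.0648). Without control starved array 9, the starvation difference in control males (adjusted p = 0.0303) and the genotype differences in starved (0.0455) and fed males (0.0427) passed the threshold, as did the fed difference without control starved array 8 (0.0346). Its 12 values spanned only 3.64 to 4.39, all within the range of the eggshell genes.

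Whether starvation acted differently in the mutant was tested as the genotype by feeding interaction, the log2 difference on starvation in *dSTINGΔ* males minus that in control males. It called 0 of the 9 genes in either direction with limma, where 0.590% of all genes were called positive and 0.738% negative. At an unadjusted p under 0.05, 4 were positive and 0 negative, with no share of all genes at that p to set beside them. Those 4 were *Ilp7* (0.66, interval 0.28 to 1.05, adjusted p = 0.0809), *Ilp2* (0.44, interval 0.11 to 0.76, adjusted p = 0.159), *Ilp3* (0.51, interval 0.08 to 0.94, adjusted p = 0.211) and *Ilp1* (0.38, interval 0.04 to 0.72, adjusted p = 0.232). The interaction of *Ilp7* passed the threshold without control starved array 9 (adjusted p = 0.0468). For *Ilp5* it was 0.32 (interval -0.13 to 0.77, adjusted p = 0.423), so that the difference between its falls in the mutant and in the control was not detectable with 3 arrays per group. The genotype and starvation comparisons share arrays, and so do the fed and averaged ones, so their values are set side by side and not as separate evidence.

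Neuron genes were followed as a rough guide to nervous tissue in whole bodies, since *Ilp2*, *Ilp3* and *Ilp5* come from few cells of the head. A list of 9 general neuron genes (*elav*, *nSyb*, *brp*, *Syt1*, *para*, *Rdl*, *VAChT*, *ChAT* and *Gad1*) had mean signals of 6.64 to 6.96 in *dSTINGΔ* starved, 6.59 to 6.94 in control starved, 6.73 to 6.95 in *dSTINGΔ* fed and 6.09 to 6.65 in control fed arrays. Control fed arrays 1, 2 and 3 gave 6.65, 6.50 and 6.09. Between the fed genotypes 3 of the 9 neuron genes were called higher in *dSTINGΔ* males and 0 lower (median log2 fold change 0.44), on starvation in control males 2 were higher and 0 lower (median 0.39), and 0 were called in either direction between the starved genotypes (median 0.05, and 0 at an unadjusted p under 0.05). Of all genes, 6.20% were higher and 6.26% lower between the fed genotypes, and 5.68% and 5.55% on starvation in control males. Between the starved genotypes the shares were 9.01% and 10.9%. With each array centred on the neuron list, the *Ilp2* difference in starved males was 1.26 (adjusted p = 0.000729), beside the value of 0.43 in fed males. The difference of *Ilp3* was -1.85 (adjusted p = 8.27e-05) in fed and -0.94 (adjusted p = 0.0147) in starved males after the same centring, and *Ilp5* then passed the threshold in fed males at -0.86 (adjusted p = 0.0277). In the same comparison *Ilp7* (-0.81, adjusted p = 0.0247), *Ilp8* (-0.58, adjusted p = 0.0373) and *ImpL2* (-0.91, adjusted p = 0.0108) passed as well. The mean of the neuron list was 6.84 in *dSTINGΔ* fed and 6.41 in control fed arrays. Centring on it thus lowers the fed difference of every gene by the same amount. Between the fed genotypes 3303 of all genes (24.4%) were then called, where the main fit called 1690. The starvation difference of control males is lowered likewise, with a list mean of 6.82 in control starved arrays. On starvation in control males the centred difference was -0.87 for *Ilp2* (adjusted p = 0.0159) and -1.67 for *Ilp5* (adjusted p = 0.00146). Of 4 genes of peptide-secreting cells (*dimm*, *Phm*, *amon* and *Cadps*), 0 were called in any of the 4 pairwise comparisons (1 was higher at an unadjusted p under 0.05 in each of the genotype comparisons). Their mean was 6.22 to 6.33 in *dSTINGΔ* starved, 6.14 to 6.26 in control starved, 6.09 to 6.31 in *dSTINGΔ* fed and 5.95 to 6.18 in control fed arrays. General neuron genes measured in whole bodies cannot show the number of insulin-producing cells. The part of neuron content in the *Ilp2* difference of fed males was not tested.

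Fat body markers also moved with the groups. The mean of 6 genes (*apolpp*, *Apoltp*, *plin1*, *FASN1*, *Desat1* and *Lsp2*) was 7.69 to 7.91 in *dSTINGΔ* starved, 8.52 to 8.80 in control starved, 9.07 to 9.35 in *dSTINGΔ* fed and 9.23 to 9.41 in control fed arrays. Between the genotypes 0 were higher in *dSTINGΔ* males and 5 lower in the starved state, and 0 higher and 2 lower in the fed state. On starvation 0 were higher and 4 lower in *dSTINGΔ* males, and 1 was higher and 3 lower in control males. The shares of all genes were 9.01% higher and 10.9% lower between the starved genotypes, and 6.20% and 6.26% between the fed ones. They were 7.30% and 9.52% on starvation in *dSTINGΔ* males, and 5.68% and 5.55% in control males. *Ilp6* was not called in any of these comparisons, and the part of fat body content in the values of *Ilp6* and *ImpL2* was not tested.

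In the RefSeq gene table for Release 6 of the genome, 5 of the peptide genes lie close together on chromosome arm 3L. *Ilp1*, *Ilp2*, *Ilp3* and *Ilp4* follow each other, and *Ilp5* comes after the next measured gene, *CG43897*. *Ilp8* and *ImpL2* lie elsewhere on 3L, and *Ilp6* and *Ilp7* lie on the X chromosome. The genes of the cluster did not share a direction. *Ilp2* was higher in *dSTINGΔ* males, the adjacent *Ilp3* was lower, and *Ilp1* and *Ilp4* on either side of the pair were not called. Of the 5 other genes within and next to the cluster, *Zasp67*, a gene of the Zasp family next to *Ilp1*, was the only one called between genotypes. Its signal averaged 3.32 ± 0.02 in *dSTINGΔ* starved, 3.94 ± 0.11 in control starved, 3.07 ± 0.21 in *dSTINGΔ* fed and 4.01 ± 0.18 in control fed males (SD, n = 3 arrays each). Each of these means lay within the range of the eggshell genes. The log2 fold change of *Zasp67* was -0.62 under starved (adjusted p = 0.00285) and -0.94 under fed conditions (adjusted p = 0.000301), with the arrays separate in both. *CG32052*, *CG43897*, *I-2* and *Cdk8* were not called in either feeding state.

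**Figure D3:**
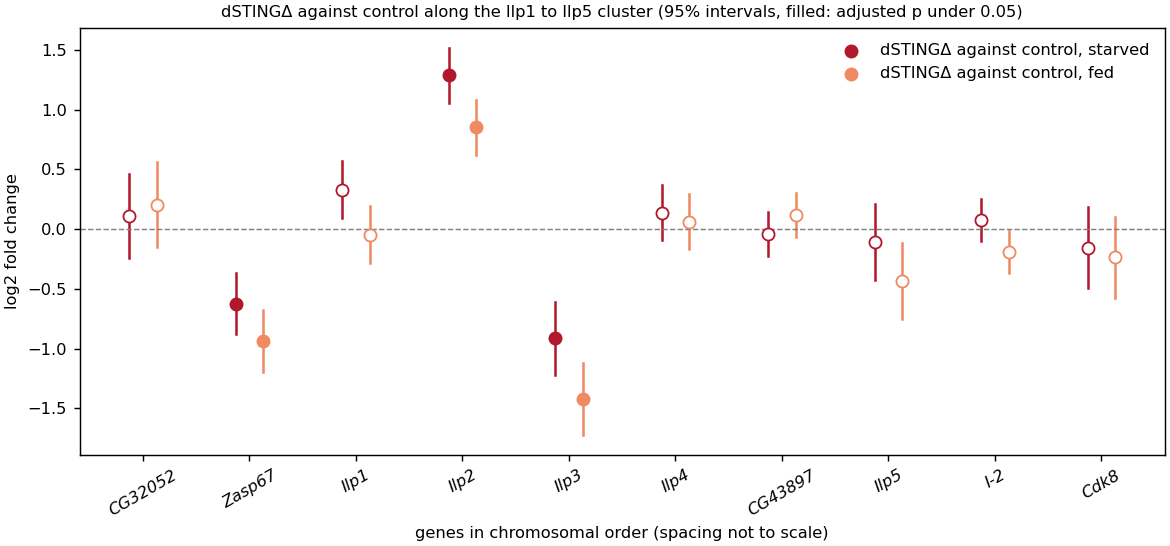
Log2 fold change between *dSTINGΔ* and control males (vertical axis, 95% confidence intervals) for the measured genes in and around the *Ilp1* to *Ilp5* cluster, in their order along 3L and not to scale. *Ilp2* is above 0, *Ilp3* and *Zasp67* are below 0 in both feeding states, and the remaining genes are not called.

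For the members called between groups, the genes with the most similar profile were sought by Pearson's r over the 12 arrays, among the genes above the median mean signal. *Ilp2* was followed most closely by *CG13255* (r = 0.98), *CG6602* (0.97) and the metallothionein gene *MtnC* (0.95). *Ilp3* was followed by the cuticle protein gene *Cpr67Fb*, *squ* and *CG4686*, each at 0.95. *Ilp5* was followed by *Fic* (0.98), the angiotensin-converting enzyme-related gene *Acer* (0.95) and *CG16799* (0.95), and *ImpL2* by *CG10326* (0.94), *CG31624* (0.93) and the ribosomal protein gene *RpS3* (0.92). These correlations describe differences among the same 4 groups and carry no test.

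Downstream of the peptides, genes of the insulin and TOR cascade were more often higher than lower in starved males of both genotypes. On starvation 10 of 18 such genes were higher and 1 lower in *dSTINGΔ* males, and 4 were higher and 0 lower in control males. The shares over the whole array were 7.30% higher and 9.52% lower in *dSTINGΔ* males, and 5.68% higher and 5.55% lower in control males. The receptor gene *InR* averaged 7.92 ± 0.01 in *dSTINGΔ* starved, 6.98 ± 0.17 in control starved, 6.16 ± 0.22 in *dSTINGΔ* fed and 6.02 ± 0.25 in control fed males (SD, n = 3 arrays each). It rose on starvation by 1.76 in *dSTINGΔ* males (adjusted p = 5.1e-06) and by 0.96 in control males (adjusted p = 0.0023). *Thor*, which encodes the translation inhibitor 4E-BP and is like *InR* a known target of FOXO, rose by 1.31 in *dSTINGΔ* (adjusted p = 1.46e-05) and by 0.59 in control males (adjusted p = 0.0115). *chico*, the receptor substrate, rose by 1.07 in *dSTINGΔ* (adjusted p = 4.14e-05) and by 0.65 in control males (adjusted p = 0.00632), and *Pdk1*, an activating kinase of Akt, rose by 0.80 in *dSTINGΔ* males (adjusted p = 0.00016). *Pi3K92E*, the catalytic subunit of phosphoinositide 3-kinase, rose by 0.51 in *dSTINGΔ* (adjusted p = 0.00512) and by 0.55 in control males (adjusted p = 0.00958). *Pi3K21B*, the regulatory subunit of phosphoinositide 3-kinase, was the gene that fell in *dSTINGΔ* males, by 0.35 (adjusted p = 0.0114). The median log2 fold change of the 18 was 0.39 in *dSTINGΔ* and 0.22 in control males, beside 0.02 and 0.00 over all genes.

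Between the starved genotypes, 7 of the 18 cascade genes were higher in *dSTINGΔ* males and 0 lower (median 0.17), where 9.01% of all genes were higher and 10.9% lower. They included *InR* (0.94, adjusted p = 0.000503), *Pdk1* (0.67, adjusted p = 0.000661), *Thor* (0.64, adjusted p = 0.00252) and the adaptor gene *Lnk* (0.48, adjusted p = 0.00384). In the same comparison 5 of 6 fat body genes and 1 of 5 muscle genes were called lower. For all 5 muscle genes the *dSTINGΔ* arrays lay below the control arrays, but the share of all genes that separate so was not computed. The part of these shifts in the cascade genes was not tested. Under fed conditions, where *Ilp2* and *Ilp3* differed as well, limma called 0 of the 18 in either direction. Of all genes, 6.20% were higher and 6.26% lower there, so a count of 0 in 18 is near the background. At an unadjusted p under 0.05, 2 were higher and 1 lower (median 0.10). The interaction called 0 of the 18, where 0.590% of all genes were called positive and 0.738% negative. At an unadjusted p under 0.05, 7 were positive and 1 negative, counts without a share of all genes beside them. The interaction was 0.79 for *InR* (adjusted p = 0.0682) and 0.73 for *Thor* (adjusted p = 0.0575), neither of which passed the threshold.

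**Figure D4:**
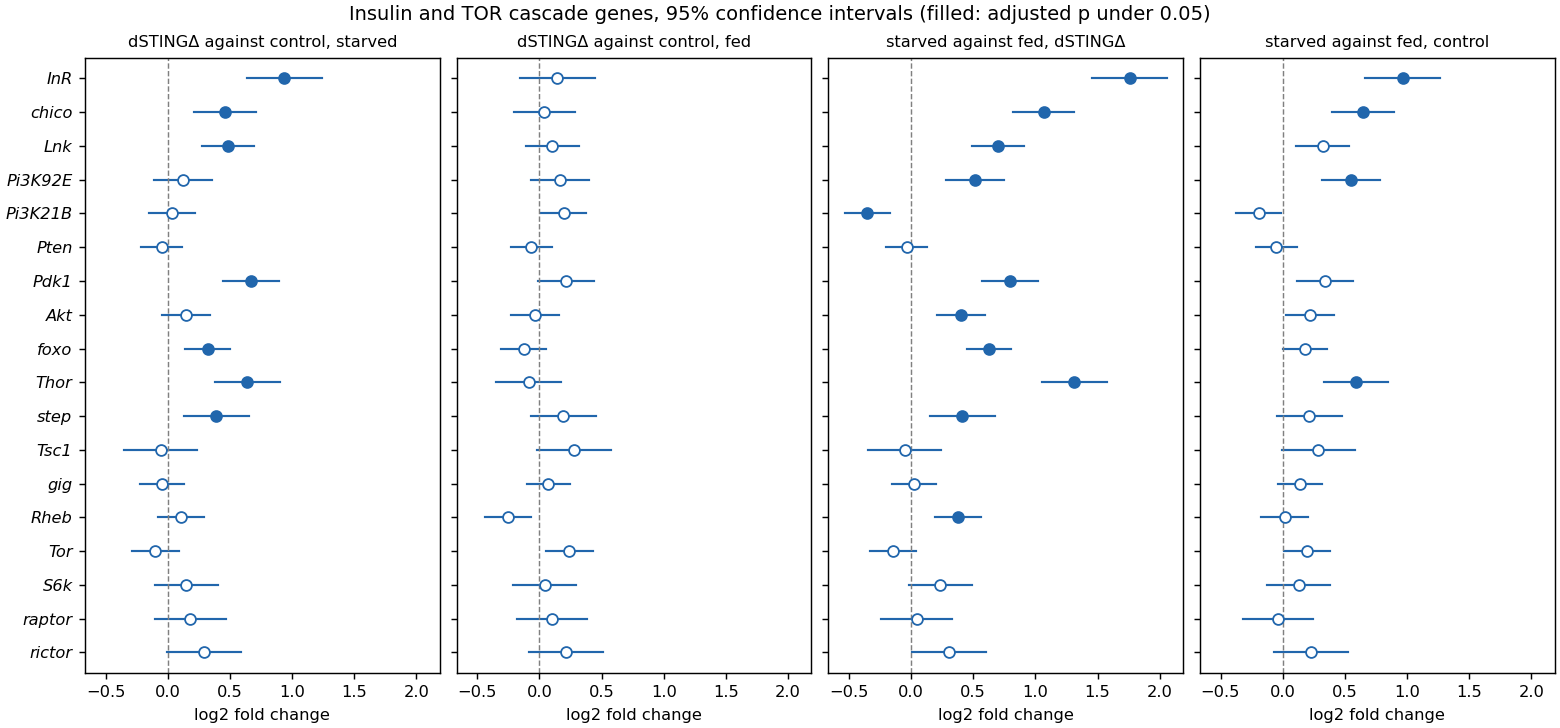
Log2 fold change (horizontal axis, 95% confidence intervals from limma) of 18 genes of the insulin and TOR cascade in the same 4 comparisons as for the peptide genes. Filled points mark an adjusted p under 0.05, with 7 between the starved genotypes, 0 between the fed genotypes, 11 on starvation in *dSTINGΔ* males and 4 in control males.

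Other secreted or cell-surface partners of the peptides were measured as well. Of 5 such genes, *Sdr*, which encodes a secreted decoy of the insulin receptor, was higher in *dSTINGΔ* fed than in control fed males by 0.77 (adjusted p = 0.00295). *Lgr4*, a relaxin receptor-like gene, was higher by 0.47 in starved (adjusted p = 0.00463) and by 0.45 in fed *dSTINGΔ* males (adjusted p = 0.0101). The means of *Sdr* and *Lgr4* lay within the range of the eggshell genes in every group. *NLaz*, a secreted lipocalin that represses insulin signaling, was higher by 0.45 in *dSTINGΔ* starved than in control starved males (adjusted p = 0.00447) and rose by 0.49 on starvation in *dSTINGΔ* males (adjusted p = 0.0025). *Lgr3*, the receptor of the *Ilp8* peptide, and *conv*, whose product binds insulin-like peptides, were not called in any of these comparisons.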

How the data were processed

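Total RNA from whole males was labelled with biotin and hybridized to Affymetrix Drosophila Gene 1.0 ST arrays. The authors normalized them by robust multi-array averaging (affy 1.48.0, R 3.2.0) and deposited them as log2 signals. The 34 deposited columns of the authors' own comparisons (fold changes, t and p-values) were not used. Columns of the table name the group but not the replicate, so arrays are called by the table's numbers. No sample was left out.

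All values were computed with R 4.3.3 and limma 3.58.1, with 1 mean per group, 12 arrays, 8 residual and 4.50 prior degrees of freedom. The procedure was tested on simulated data. Nothing says that the 3 samples of a group came from separate cultures, so p-values measure the spread between these samples. The members and the gene lists were chosen with earlier results of these data known. All 9 members are named. From each pathway list up to 4 called genes with the smallest p-values are named per comparison, and genes outside this rule were chosen after their values were seen. Alternatives were the 6 arrays of a comparison alone, array quality weights, a replicate block, empirical Bayes moderation with a trend and robust to outliers, centring on the array median or on neuron markers, repeated quantile normalization, genes above the median signal, the deposited sample records (log2, equal to the table within 0.005), each array left out, an adjusted p under 0.01 and a fold over 1.4. The number of arrays limits the precision. Gene identifiers were matched to RefSeq for 13263 of 13554 genes.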

Additional observations from a re-analysis of the deposited data

Results flagged for a closer look

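*Ilp7* stood out because its arrays moved in opposite directions on starvation. Every *dSTINGΔ* starved array lay above every *dSTINGΔ* fed array, and every control starved array lay below every control fed array. The difference between these responses was tested as the interaction, which was 0.66 on the log2 scale (95% confidence interval 0.28 to 1.05, unadjusted p = 0.00266, limma adjusted p = 0.0809), and it did not pass the threshold. The smallest gap between the groups was small in both genotypes, with a lowest *dSTINGΔ* starved value of 4.13 beside a highest *dSTINGΔ* fed value of 4.06, and a highest control starved value of 4.15 beside a lowest control fed value of 4.18.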

How the results depend on the processing

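Of 12 results called for the 9 genes, 8 kept their direction and their call under every alternative tried, and among 51 that were not called 14 passed the threshold under at least 1 alternative. No called result changed sign, and 53 of 1380 values compared did so among those not called. The calls of *Ilp3* and *Ilp5* were among those kept, wherever these genes were tested. The number of members called between *dSTINGΔ* fed and control fed males was 2, and it became 5 with arrays centred on the neuron markers and 1 when only genes above the median signal were tested, which left *Ilp2*, *Ilp6* and *ImpL2*. Array quality weights added *Ilp7* (adjusted p = 0.0207), and some fits with 1 array left out added *Ilp5*, *Ilp7* or *ImpL2*. Between the starved genotypes the number changed to 5 with array quality weights and 1 with genes above the median, from 2. Centring on the array median (adjusted p = 0.0367) or using the sample records (0.0479) added *Ilp1*. Some fits with 1 array left out added *Ilp1* or *Ilp7*. For starvation in control males 2 became 1 (the 6 arrays alone, genes above the median, adjusted p under 0.01, or a fold over 1.4) and 4 (weights, or neuron centring), and ranged over 1 to 3 with 1 array left out. For starvation in *dSTINGΔ* males 1 became 0 with genes above the median. The interaction gave 2 with weights in place of 0 (*Ilp1*, adjusted p = 0.0442, and *Ilp7*, 0.0126), and 0 to 1 with 1 array left out. Weights also raised the calls over all genes, from 1.33% to 15.5% for the interaction. The rise was from 12.5% to 20.3% between the fed and from 20% to 33.7% between the starved genotypes. For starvation in control males it was from 11.2% to 33.4%. The averaged comparisons rose from 24.7% to 33.5% for genotype and from 24.6% to 37% for starvation. The averaged genotype difference gave 5 with weights in place of 3, 2 with genes above the median, an adjusted p under 0.01 or a fold over 1.4, and 2 to 4 with 1 array left out, and the averaged starvation difference gave 1 in place of 2 with arrays centred on their median, genes above the median, adjusted p under 0.01 or a fold over 1.4, 3 with weights (*ImpL2*, adjusted p = 0.0273), and 1 to 2 with 1 array left out. With genes above the median, *Ilp3* and *Ilp5* were no longer tested, so their calls dropped out. With an adjusted p under 0.01 or a fold over 1.4, calls were lost to the stricter threshold itself. The cause of the other changes was not tested.

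Over all genes, the calls between the fed genotypes were 1690 and ranged over 716 to 3303, those between the starved genotypes were 2705 (698 to 4563), those for starvation were 2280 (697 to 3315) in *dSTINGΔ* and 1522 (315 to 4528) in control males, and those of the interaction were 180 (17 to 2096). The averaged comparisons gave 3342 (1194 to 4538) for genotype and 3330 (985 to 5021) for starvation.

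The replicate numbers of the labels are shared by the groups, and deviations of same-numbered samples correlated at -0.45 to 0.37. These values were not compared with those of differently numbered samples, so they cannot show whether same-numbered samples were handled together. With the replicate block the members called were the same in number, 2 between the fed genotypes and 2 between the starved ones, and 1458 of all genes were called between the fed genotypes. The number of arrays limits the precision. Of the 9 genes, 6 had means over the 12 arrays within the range of the eggshell genes. For *Ilp3*, *Ilp5* and *Ilp8* this placement rested on the mean of *Cp15* alone. The control fed arrays of *Ilp5* lay above that range.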

Other observations

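Genes of the hormones that reach the insulin-producing cells, and of the receptors on those cells, changed in both directions. On starvation 2 of 14 hormone genes were higher and 2 lower in *dSTINGΔ* males, where 7.30% of all genes were higher and 9.52% lower, and 1 was higher and 4 lower in control males, where 5.68% of all genes were higher and 5.55% lower. *CCHa2*, a nutrient-dependent peptide of fat body and gut that promotes insulin-like peptide expression, differed between starved and fed males by -1.41 log2 units in *dSTINGΔ* (limma, adjusted p = 9.66e-06) and by -0.93 in control males (adjusted p = 0.00138). *Lst*, the gene of limostatin, a hormone that lowers insulin release, rose by 0.99 in *dSTINGΔ* (adjusted p = 5.91e-05) and by 0.61 in control males (adjusted p = 0.00729). The tachykinin gene *Tk* rose by 0.26 in *dSTINGΔ* males (adjusted p = 0.0383). *Gbp2*, the gene of a growth-blocking peptide, differed by -0.33 in *dSTINGΔ* (adjusted p = 0.0217) and -0.32 in control males (adjusted p = 0.0372). *Gbp1*, of the same family, differed by -0.86 (adjusted p = 0.00409) and the activin-type ligand gene *daw* by -0.50 (adjusted p = 0.0247) in control males. Between genotypes, 1 of the 14 was higher and 1 lower in starved males (9.01% and 10.9% of all genes), and 1 was higher and 2 lower in fed males (6.20% and 6.26%). *Gbp2* was lower in *dSTINGΔ* males, with differences of -0.36 log2 units in the starved (adjusted p = 0.0123) and -0.35 in the fed state (adjusted p = 0.0209), and *Lst* was lower in the fed state (-0.49, adjusted p = 0.013). The leucokinin gene *Lk* was higher in *dSTINGΔ* males by 0.76 in the starved (adjusted p = 0.000267) and 0.34 in the fed state (adjusted p = 0.0459).

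Of 16 receptor genes, 1 was higher in *dSTINGΔ* males and 3 were lower in the starved state, and in the fed state 2 were higher and 2 lower, beside the same shares of all genes. *PK1-R*, the reported receptor of limostatin, averaged 4.72 ± 0.17 in *dSTINGΔ* starved, 3.67 ± 0.30 in control starved, 5.82 ± 0.23 in *dSTINGΔ* fed and 3.87 ± 0.20 in control fed males (SD, n = 3 arrays each). All of these means but that of *dSTINGΔ* fed males lay within the range of the eggshell genes. *PK1-R* was higher in *dSTINGΔ* males by 1.05 in the starved (adjusted p = 0.000729) and 1.95 in the fed state (adjusted p = 1.1e-05). The allatostatin C receptor gene *AstC-R2* differed by -1.59 in the starved (adjusted p = 0.000842) and -1.16 in the fed state (adjusted p = 0.0103). Its *dSTINGΔ* means lay within the range of the eggshell genes in both states. In the starved state *sNPF-R*, a neuropeptide receptor gene (-0.43, adjusted p = 0.00317), and *AkhR*, the adipokinetic hormone receptor gene (-0.47, adjusted p = 0.00769), were also lower in *dSTINGΔ* males. In the fed state *grnd*, which encodes a receptor of the tumor necrosis factor family ligand Eiger, was lower (-0.41, adjusted p = 0.0183) and *GABA-B-R2* was higher (0.54, adjusted p = 0.0184). On starvation in *dSTINGΔ* males 1 receptor gene was higher and 2 were lower, where 7.30% of all genes were higher and 9.52% lower. They were *mthl10* (0.63, adjusted p = 0.0104), *AkhR* (-0.78, adjusted p = 0.000231) and *PK1-R* (-1.10, adjusted p = 0.00043). In control males 2 were higher, *babo* (0.43, adjusted p = 0.0246) and *GABA-B-R2* (0.54, adjusted p = 0.0251), and *AkhR* was lower (-0.43, adjusted p = 0.0241). The shares of all genes on starvation in control males were 5.68% higher and 5.55% lower. The interaction called 0 of the 14 hormone and 0 of the 16 receptor genes, where 0.590% of all genes were called positive and 0.738% negative. At an unadjusted p under 0.05, 3 hormone genes were positive and 1 negative, and 0 receptor genes were positive and 4 negative. No share of all genes at that p was computed. Whole-body arrays do not show in which cells these receptor transcripts were present.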
